A study of Homo sapiens with 12 samples.

Results

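Messenger RNA levels of 10 G protein-coupled receptors for chemotactic and inflammatory signals were described in sublines of the human mast cell leukemia line HMC-1. The receptors were CXCR4, CCR1, C3AR1, C5AR1, ADORA2A, ADORA2B, HRH2, PTGER2, PTGER3 and CYSLTR1. They were matched by gene symbol among the 58381 genes in the deposited table, and all 10 symbols were found there. The receptors were chosen with earlier results of these data known. The 12 libraries of mRNA fell into 4 groups of 3. HMC-1.1 carries KIT V560G, HMC-1.2 carries KIT V560G and KIT D816V, and HMC-1.3 carries KIT D816V alone. KIT is the receptor tyrosine kinase for stem cell factor, and V560G lies in its juxtamembrane domain and D816V in its kinase domain. HMC-1.3 was made from HMC-1.2 by reverting V560G with CRISPR/Cas9, and it was sequenced as clone 1 and clone 2. Each HMC-1.3 group is a single edited and expanded clone, so clonal differences and the edit cannot be told apart within a clone. All cells were unstimulated, and the replicates of a group were wells plated in parallel, so p-values measure only the spread between these cultures. The comparisons with HMC-1.2 set cells with both KIT mutations beside cells with either mutation alone. HMC-1.1 and HMC-1.2 are separate sublines, and HMC-1.3 alone went through electroporation, puromycin selection and cloning. In these comparisons, KIT genotype and the history of a subline cannot be told apart.

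G protein-coupled receptors cross the membrane with a bundle of helices and pass on a ligand's signal through a G protein of the Gs, Gi, Gq or related class. In mast cells, receptors coupled to Gi, such as those for chemokines and complement peptides, can drive migration and add to degranulation. Receptors coupled to Gs raise cyclic AMP, which often restrains mediator release. The inflammatory ligands in question include chemokines, the complement peptides C3a and C5a, adenosine, histamine, prostaglandin E2 and cysteinyl leukotrienes, several of which mast cells also make.

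Total expected counts ranged from 29225900 to 43181402 per library. In all 12 libraries, 8 of 10 mast cell markers were at 1 FPKM or more, KIT itself at 346 to 469 FPKM, whereas MS4A2, the β chain of the IgE receptor, stayed under 1 FPKM. FPKM scales the fragments of a gene to its transcript length and to the library size, so that levels can be compared between genes. The edit changes bases within KIT, which gene-level counts do not read out, so these levels do not check which KIT variant a library carries. Of the markers of other cells, the summed level of the T cell markers was 0.72 FPKM at most, with CD8A at 0 counts, and that of the epithelial and fibroblast markers 0.41 FPKM at most. The summed monocyte markers were at 14.6 to 20.4 FPKM in HMC-1.2 and 5.88 to 7.5 FPKM in the other 9 libraries, a difference that lay in CD68, while the monocyte marker CD14 was at 0.08 FPKM at most. The part of these levels in the receptor results was not tested. In bulk RNA, fewer cells of a type and less RNA per cell cannot be told apart.

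The 10 receptors covered the range from none to among the most abundant mRNAs. With expression defined as a mean of at least 1 FPKM in at least 1 group, 6 were expressed: C3AR1, ADORA2B, ADORA2A, HRH2, CXCR4 and C5AR1. C3AR1 was highest, with a mean over the 12 libraries of 145 FPKM, above 97.4% of the 28254 genes listed above 0. ADORA2B followed at 102 FPKM, above 96.1% of those genes. ADORA2A was at 14.1 FPKM and HRH2 at 2.76 FPKM, so the abundant receptors were one for a complement peptide and those for adenosine. CXCR4 averaged 1.04 FPKM and C5AR1 0.748 FPKM, and each reached 1 FPKM only in HMC-1.2. CYSLTR1 at 0.177 FPKM, PTGER3 at 0.0425 FPKM and CCR1 at 0.04 FPKM were under the limit in every group. PTGER2 was the receptor without a read.

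**Figure D1:**
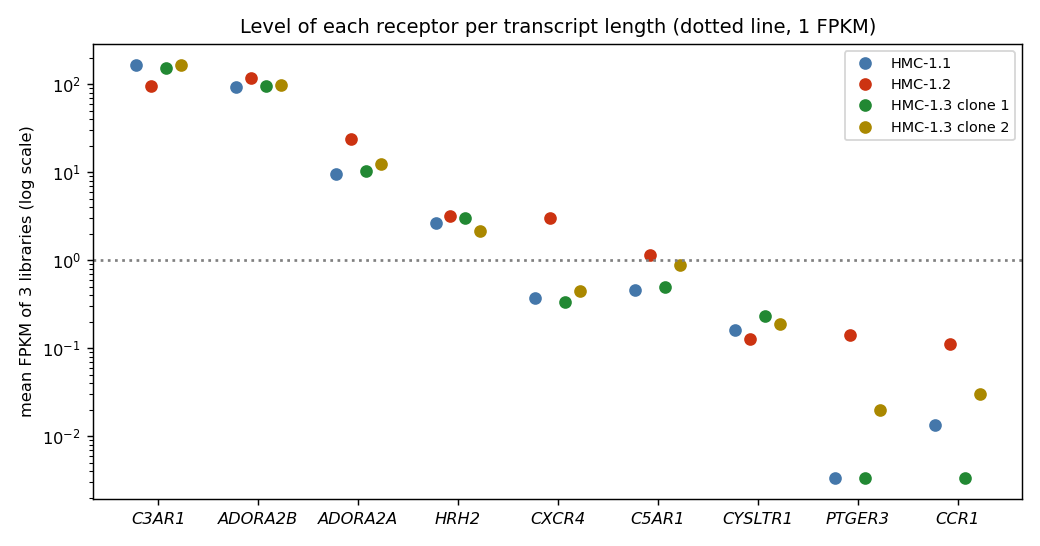
Mean FPKM of 3 libraries per group (vertical axis, log scale) for 9 receptors in order of their highest group mean, with a dotted line at 1 FPKM. PTGER2, at 0 counts, is not drawn. C3AR1 and ADORA2B lie at 94.2 to 167 FPKM in every group, and CXCR4 and C5AR1 lie above the line in HMC-1.2 alone.

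The order of the top 2 receptors differed between the groups. In HMC-1.2, ADORA2B was at 119 ± 3.04 FPKM (SD, n = 3) and C3AR1 at 95.9 ± 1.49 FPKM (SD, n = 3). In HMC-1.3 clone 1, C3AR1 was at 153 ± 1.25 FPKM (SD, n = 3) and ADORA2B at 96.8 ± 2.87 FPKM (SD, n = 3). C3AR1 was likewise the higher in HMC-1.3 clone 2, at 167 against 97.8 FPKM, and in HMC-1.1, at 164 against 94.2 FPKM. No library of 1 receptor overlapped the other in any group. CXCR4 stood lower in this order outside HMC-1.2 too. Its level in HMC-1.2 was 3.01 ± 0.0351 FPKM (SD, n = 3), beside 3.19 ± 0.13 FPKM (SD, n = 3) for HRH2, and in the other groups CXCR4 was at 0.337 to 0.443 FPKM and HRH2 at 2.14 to 3.03 FPKM.

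Differences between groups were tested on the counts of 15944 genes with edgeR's quasi-likelihood test and Benjamini-Hochberg adjustment over all of them, and a gene was called at an adjusted p under 0.05 and a change over 1.5-fold. CCR1 and PTGER2 had too few counts to be tested, which left 8 receptors. PTGER3 passed the filter only through its counts in HMC-1.2, so that it could enter the test only by differing. In HMC-1.3 clone 1 against HMC-1.2, 5 of the 8 were called, 1 higher and 4 lower, where 20% of all genes tested were called, 11.8% higher and 8.18% lower. For HMC-1.3 clone 2 the counts against HMC-1.2 were again 1 higher and 4 lower, with 16.5% of all genes called, 7.98% higher and 8.51% lower. HMC-1.1 likewise had 1 receptor higher and 4 lower than HMC-1.2, with 17.6% of all genes called, 10.1% higher and 7.52% lower. Since the receptors were chosen with earlier results of these data known, these counts are no test of the receptors as a class. These 3 comparisons share the HMC-1.2 libraries. CXCR4, ADORA2A and PTGER3 were called lower and C3AR1 higher in each of them, C5AR1 was called lower in clone 1 and HMC-1.1, and HRH2 was called lower in clone 2. Over all genes tested, 4.58% were called higher in HMC-1.2 than in each other group and 5.16% were called lower.

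By the adjusted p alone, 6 receptors passed for clone 1, 6 for clone 2 and 7 for HMC-1.1, where 59.4%, 48.5% and 53.7% of all genes tested passed. The libraries of the compared groups did not overlap for 7 of the 8 receptors in each of these comparisons, as they did not for 64.2%, 56% and 59.9% of all genes tested. The median log2 fold change of the 8 receptors relative to HMC-1.2 was -0.79 (clone 1), -0.50 (clone 2) and -0.87 (HMC-1.1), and that of all genes tested was 0.01, 0.00 and 0.01. PTGER3, which entered the test only through HMC-1.2, is included in each of these counts and medians.

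The comparisons that leave HMC-1.2 out gave fewer calls. In clone 1 against HMC-1.1, edgeR's quasi-likelihood test called 0 of the 8 receptors, as did DESeq2, while 2 had an unadjusted p under 0.05. Of all genes tested, 1.01% were called there, 0.671% higher and 0.339% lower. C3AR1 passed the adjusted p alone, which 18.7% of all genes did, and 2 receptors did not overlap, which 33.4% of all genes did not. In clone 2 against HMC-1.1, C5AR1 was called higher, where 8.19% of all genes were called, 3.04% higher and 5.15% lower. There 3 receptors passed the adjusted p and 4 did not overlap, beside 36% and 47.3% of all genes. In clone 1 against clone 2, C5AR1 was called lower, where 12.6% of all genes were called, 8.38% higher and 4.25% lower. There 4 receptors passed the adjusted p and 4 did not overlap, beside 50.2% and 56.8% of all genes.

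**Figure D2:**
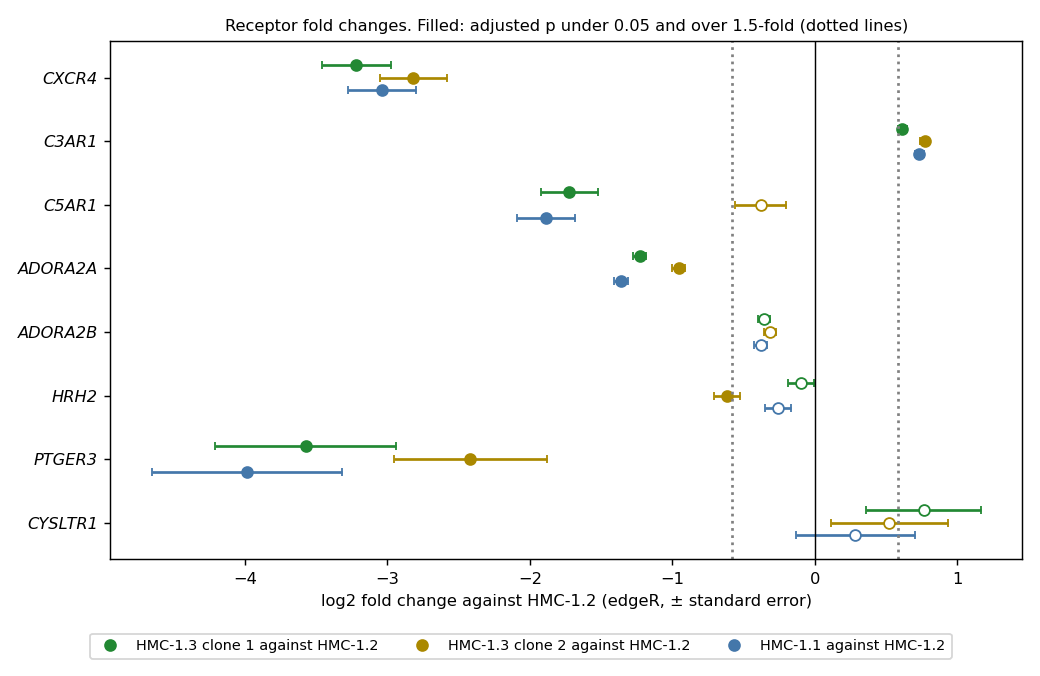
Log2 fold change against HMC-1.2 (horizontal axis, edgeR, bars ± standard error) of the 8 receptors tested, with a point for HMC-1.3 clone 1, HMC-1.3 clone 2 and HMC-1.1 each. Filled points passed the adjusted p and the 1.5-fold change marked by dotted lines; CXCR4 lies at -3.22 to -2.82 in all 3, whereas C5AR1 lies at -0.38 in clone 2 and at -1.89 to -1.72 in the others.

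CXCR4, the Gi-coupled receptor for the chemokine CXCL12, lies on chromosome 2 at 136114349 to 136119177 on the minus strand (GRCh38). Its normalised read counts were 4.55, 4.46 and 4.41 CPM, which are counts scaled to library size, in the HMC-1.2 libraries. They were 0.635, 0.427 and 0.369 CPM in HMC-1.3 clone 1 and 0.848, 0.59 and 0.486 CPM in clone 2. In HMC-1.1 they were 0.69, 0.385 and 0.549 CPM. The HMC-1.2 libraries stood above all others by a wide gap, and the other 3 groups overlapped one another. Against HMC-1.2, CXCR4 was 9.31-fold lower in clone 1 (log2 fold change -3.22, SE 0.24, adjusted p = 5.3e-09 by edgeR's quasi-likelihood test and Benjamini-Hochberg adjustment). It was 7.04-fold lower in clone 2 (log2 fold change -2.82, SE 0.23, adjusted p = 2e-08 by the same test) and 8.2-fold lower in HMC-1.1 (log2 fold change -3.04, SE 0.24, adjusted p = 1e-08). The low groups rest on few reads, 13 to 29 expected counts per library against 128 to 163 in HMC-1.2. Among these low groups, the differences in CXCR4 were -0.40 (SE 0.29) on the log2 scale for clone 1 against clone 2 and 0.22 (SE 0.28) for clone 2 against HMC-1.1, with adjusted p = 0.27 and 0.58 by edgeR.

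CCR1, a receptor for CCL3, CCL5 and CCL23, lies on chromosome 3 at 46201711 to 46208313 on the minus strand, within the span of CCR3 on the opposite strand, which itself had 0 to 1 counts. The CCR1 counts were 13, 7 and 8 in HMC-1.2. They were 2, 1 and 1 in HMC-1.1, 0, 1 and 0 in clone 1, and 3, 5 and 1 in clone 2. The HMC-1.2 libraries were again the highest and overlapped none of the others. Summed over 3 libraries, the CCR1 rate was 3.76 times as high in HMC-1.2 as in clone 2, with an exact 95% interval of 1.72 to 9.05, and 8.08 times as high as in HMC-1.1, with an interval of 2.83 to 31.7. Against clone 1, which held 1 count, the ratio was 30.9 with an interval of 5.1 to 1260. Such intervals cover counting error only. When genes with low counts were kept in the fit, CCR1 was called lower in clone 1 (adjusted p = 0.00029, edgeR) and HMC-1.1 (adjusted p = 0.0077, edgeR), and in clone 2 its log2 fold change of -1.84 had an adjusted p of 0.091.

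C3AR1, the Gi-coupled receptor for the anaphylatoxin C3a, lies on chromosome 12 at 8056844 to 8066359 on the minus strand. It was the receptor called in the opposite direction to the others, being lowest in HMC-1.2. The levels were 182, 180 and 182 CPM in HMC-1.2. In clone 1 they were 279, 278 and 275 CPM, in clone 2 316, 315 and 296 CPM, and in HMC-1.1 306, 291 and 306 CPM. No library of another group fell to the level of HMC-1.2, and clone 2 and HMC-1.1 overlapped. C3AR1 was 1.53-fold higher in clone 1 than in HMC-1.2 (log2 fold change 0.61, SE 0.03, adjusted p = 4e-11, edgeR). It was 1.7-fold higher in clone 2 (log2 fold change 0.77, adjusted p = 2e-12, edgeR) and 1.66-fold higher in HMC-1.1 (log2 fold change 0.73, adjusted p = 4.1e-12, edgeR). The value for clone 1 is close to the 1.5-fold limit, and a test against that limit itself (edgeR's glmTreat) gave an adjusted p of 0.42. Clone 1 was also 1.11-fold below clone 2, a log2 fold change of -0.16 (SE 0.03, adjusted p = 0.00052, edgeR).

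C5AR1, the Gi-coupled receptor for C5a, lies on chromosome 19 at 47290023 to 47322066 on the plus strand, and it separated the HMC-1.3 clones. The levels were 2.18, 2.15 and 2.72 CPM in HMC-1.2 and 1.75, 1.77 and 1.87 CPM in clone 2. In clone 1 they were 0.662, 0.694 and 0.767 CPM, and in HMC-1.1 0.557, 0.55 and 0.784 CPM. Clone 1 and HMC-1.1 overlapped at the low end, and every library of clone 2 lay between them and HMC-1.2. C5AR1 was 3.3-fold lower than in HMC-1.2 in clone 1 (log2 fold change -1.72, SE 0.20, adjusted p = 1.2e-06, edgeR) and 3.7-fold lower in HMC-1.1 (log2 fold change -1.89, SE 0.20, adjusted p = 6e-07, edgeR). In clone 2 the log2 fold change against HMC-1.2 was -0.38 (SE 0.18, adjusted p = 0.093, edgeR). The difference between the clones was tested directly, with clone 1 being 2.54-fold below clone 2 (log2 fold change -1.34, SE 0.20, adjusted p = 3.4e-05, edgeR). Clone 2 was 2.84-fold above HMC-1.1 (log2 fold change 1.51, SE 0.21, adjusted p = 2.1e-05, edgeR).

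The 2 deposited scales gave different pictures of C5AR1 in 2 libraries. HMC-1.1 replicate 3 held 30 expected counts and 0.78 FPKM, and HMC-1.1 replicate 1 held 21 expected counts and 0.31 FPKM. Likewise clone 1 replicate 1 held 24 expected counts and 0.76 FPKM, and clone 1 replicate 3 held 27 expected counts and 0.38 FPKM. The transcript length that counts and FPKM imply together was 888 to 1010 bases in those 2 libraries and 1797 to 2102 bases in the other 10, so the estimated share of C5AR1 isoforms differed between libraries of a group. On FPKM with a pseudocount of 0.1, limma gave C5AR1 log2 fold changes of 0.96 for clone 2 against HMC-1.1 (adjusted p = 0.068) and -0.81 for clone 1 against clone 2 (adjusted p = 0.089), so both differences were called on counts alone. With a pseudocount of 1, the calls against HMC-1.2 were lost too, at -0.53 in clone 1 and -0.58 in HMC-1.1, which are under the 1.5-fold limit.

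**Figure D3:**
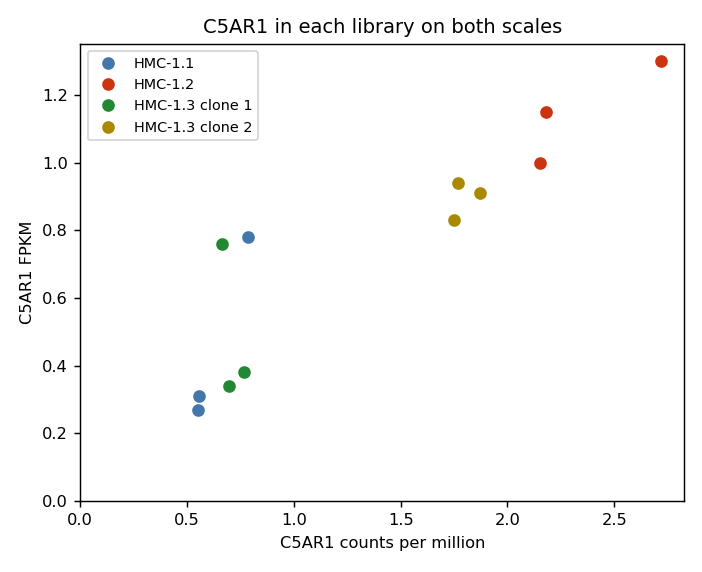
C5AR1 in each of the 12 libraries, as CPM (horizontal axis) and FPKM (vertical axis), coloured by group. A library each of HMC-1.1 and HMC-1.3 clone 1 lies at 0.76 to 0.78 FPKM, above its own group on the vertical axis and beside it on the horizontal axis.

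The adenosine receptors ADORA2A and ADORA2B both couple to Gs, ADORA2A with the higher affinity for adenosine. ADORA2A lies on chromosome 22 at 24417879 to 24442357 on the plus strand. Its levels were 47.4, 47.5 and 45.9 CPM in HMC-1.2. They were 20.8, 19.9 and 19.3 CPM in clone 1, 24.8, 24.7 and 23.2 CPM in clone 2, and 17.7, 19.1 and 18 CPM in HMC-1.1. The 4 groups did not overlap and stood in the order HMC-1.2, clone 2, clone 1, HMC-1.1. ADORA2A was 2.35-fold lower than in HMC-1.2 in clone 1 (log2 fold change -1.23, SE 0.05, adjusted p = 7.2e-13, edgeR), 1.94-fold lower in clone 2 (log2 fold change -0.96, adjusted p = 1.7e-11) and 2.57-fold lower in HMC-1.1 (log2 fold change -1.36, adjusted p = 2.1e-13). The last neighbours in that order, clone 1 and HMC-1.1, differed by a log2 fold change of 0.13 (SE 0.05) with an adjusted p of 0.087 by edgeR. A read-through gene, SPECC1L-ADORA2A, overlaps ADORA2A on the same strand and received 3.8 to 24.35 expected counts per library, so that a small share of the reads could be divided differently.

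ADORA2B, on chromosome 17 at 15945130 to 15975746 on the plus strand, was abundant in every group and varied the least of the expressed receptors. The levels were 182, 181 and 187 CPM in HMC-1.2, 147, 144 and 139 CPM in clone 1, 150, 152 and 140 CPM in clone 2, and 144, 130 and 148 CPM in HMC-1.1. HMC-1.2 stood above all others, and the other 3 groups overlapped. The difference from HMC-1.2 was 1.24-fold to 1.3-fold, with log2 fold changes of -0.36, -0.31 and -0.38 in clone 1, clone 2 and HMC-1.1 (SE 0.04, adjusted p = 2.4e-06, 1.3e-05 and 1.3e-06, edgeR). ADORA2B therefore passed the adjusted p in each comparison and stayed under the 1.5-fold limit, so that it is not among the calls.

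HRH2, the Gs-coupled histamine receptor, lies on chromosome 5 at 175658030 to 175710756 on the plus strand. Its levels were 10.6, 11.6 and 11.2 CPM in HMC-1.2, 10.5, 9.05 and 11.7 CPM in clone 1, and 9.82, 9.4 and 8.76 CPM in HMC-1.1. In clone 2 they were 7.54, 6.77 and 7.52 CPM, below every other library. Clone 1 overlapped both HMC-1.2 and HMC-1.1. HRH2 was 1.53-fold lower in clone 2 than in HMC-1.2 (log2 fold change -0.62, SE 0.09, adjusted p = 3.2e-05, edgeR), just past the limit. Without clone 2 replicate 2 the log2 fold change was -0.57 and the call was lost. Relative to HMC-1.2 the log2 fold change was -0.10 in clone 1 (adjusted p = 0.36, edgeR) and -0.26 in HMC-1.1 (adjusted p = 0.025, edgeR). Clone 1 was 1.43-fold above clone 2 (log2 fold change 0.52, SE 0.09, adjusted p = 0.00019, edgeR), which is under the 1.5-fold limit.

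The eicosanoid receptors were scarce. PTGER3, the Gi-coupled receptor for prostaglandin E2, lies on chromosome 1 at 70852353 to 71047816 on the minus strand. It had 16, 13 and 16 counts in HMC-1.2, 2, 1 and 0 in HMC-1.1, 3, 1 and 0 in clone 1, and 3, 4 and 3 in clone 2. The HMC-1.2 libraries overlapped no others. Summed over 3 libraries, the PTGER3 rate in HMC-1.2 was 12.4 times that in clone 1 (exact 95% interval 4.52 to 47.5) and 5.43 times that in clone 2 (interval 2.7 to 12.1). Against HMC-1.1, which held 3 counts, the ratio was 17.3 with an interval of 5.56 to 87.1. The edgeR log2 fold changes were -3.57 (adjusted p = 0.00012), -2.42 (adjusted p = 0.0012) and -3.98 (adjusted p = 7.9e-05) in clone 1, clone 2 and HMC-1.1. Without clone 1 replicate 1 the first was -4.80, and without HMC-1.1 replicate 1 the last was -4.83. PTGER3 entered this test only through its counts in HMC-1.2, so these adjusted p-values are no independent support for the difference.

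CYSLTR1, the receptor for cysteinyl leukotrienes, lies on chromosome X at 78271468 to 78327691 on the minus strand. It had 14, 11 and 5 counts in HMC-1.2, 23, 15 and 20 in clone 1, 19, 19 and 14 in clone 2, and 19, 8 and 16 in HMC-1.1. Clone 1 lay just above HMC-1.2 without overlap, and the other groups overlapped. The summed rate in clone 1 was 1.75 times that in HMC-1.2, with an exact 95% interval of 1.11 to 2.82 for counting error, and over the replicates the log2 fold change was 0.76 (SE 0.40, adjusted p = 0.12, edgeR). With 5 to 23 counts per library, no comparison of CYSLTR1 was called by edgeR.

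PTGER2, the Gs-coupled receptor for prostaglandin E2, lies on chromosome 14 at 52314305 to 52328598 on the plus strand and had 0 counts in all 12 libraries. A count of 0 allows a level of up to 3 counts, which is 0.0695 to 0.103 CPM depending on the library. The other Gs-coupled receptors described here, HRH2 and the adenosine receptors, were at 6.77 CPM or more in every library.

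**Figure D4:**
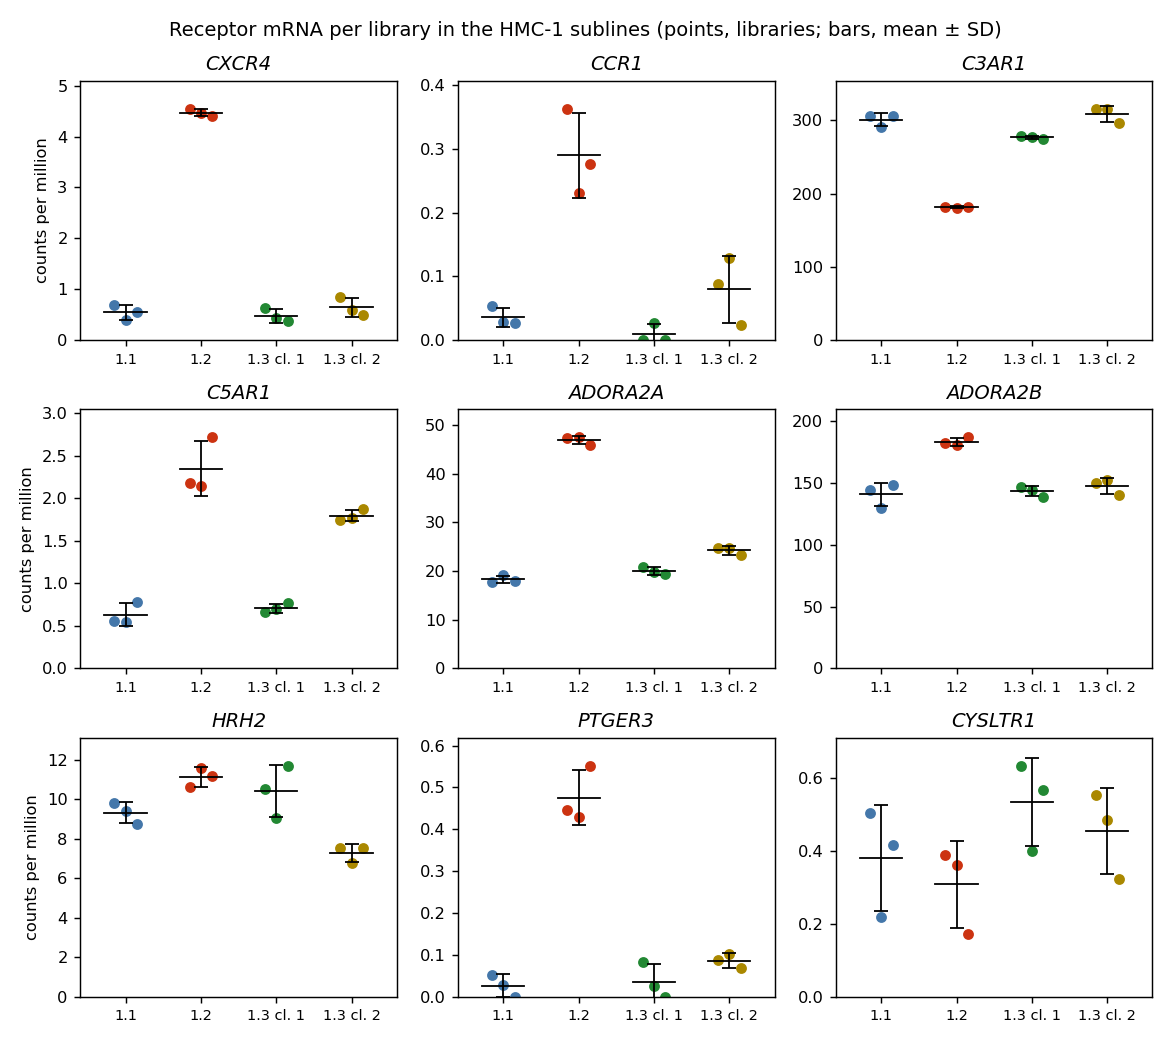
CPM of 9 receptors in each library (points), by subline, with the mean and SD of 3 libraries as bars and a separate vertical scale from 0 in each panel. HMC-1.2 is the highest group for CXCR4, CCR1, C5AR1, ADORA2A, ADORA2B, HRH2 and PTGER3 by its mean, and the lowest for C3AR1, at 180 to 182 CPM, and for CYSLTR1, where the groups are close.

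The genes whose profile over the 12 libraries was closest to that of a receptor were found by the root mean square difference of the centred log2 CPM among 13100 genes. For CXCR4 they were PRF1, which encodes perforin, at a difference of 0.26 and CSF1, the macrophage growth factor, at 0.28. PRF1 was at 260 FPKM in HMC-1.2 and at 42.7 to 43.3 FPKM in the other groups, and CSF1 at 45 FPKM and 6.56 to 6.82 FPKM. C3AR1 was closest to RBBP7, a histone-binding protein, at 0.0256 and to the choline transporter SLC44A2 at 0.0361. C5AR1 was closest to the oncostatin M receptor OSMR at 0.116 and the lysosomal protease gene CTSH at 0.186. OSMR was at 2.44 FPKM in HMC-1.2, 1.99 FPKM in clone 2, 0.847 FPKM in clone 1 and 0.867 FPKM in HMC-1.1, so it stood in the same order as C5AR1 apart from the low pair. ADORA2A was closest to the G protein α gene GNAO1 at 0.0851 and the keratin gene KRT19 at 0.0868, ADORA2B to SFT2D1 and NOSIP at 0.0441 and 0.0444, and HRH2 to EPS15 and CNTRL at 0.092 and 0.0986. EPS15, an endocytosis adaptor, was at 38.3 FPKM in clone 2 and 58.5 to 63.8 FPKM in the other groups. This likeness is a description of 12 libraries that share 4 groups, and when the 4 group means were compared instead, 3 of these 12 genes were again among the closest.

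The receptors were set beside 77 other chemotactic and inflammatory receptors in 6 lists, 22 of which were expressed at 1 FPKM or more and 31 of which were tested. In clone 1 against HMC-1.2, 1 of the 31 was called higher and 9 lower, beside 11.8% and 8.18% of all genes tested. In clone 2 the counts were 2 higher and 14 lower, beside 7.98% and 8.51%, and in HMC-1.1 they were 1 higher and 11 lower, beside 10.1% and 7.52%. These calls include CXCR1, lower in clone 2 and HMC-1.1, and CYSLTR2, higher in clone 2. Both genes passed the filter on low counts only through groups where they were high. HRH4, called lower in HMC-1.1, likewise passed only through libraries of other groups. These lists, too, were chosen with earlier results of these data known. The medians of the 31 receptors were -0.20, -0.37 and -0.17 on the log2 scale. The clones differed from each other in 11 of the 31, with 7 higher and 4 lower in clone 1, beside 8.38% and 4.25% of all genes.

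Of the other chemokine receptors, 5 of 21 were tested, and CCR10, the receptor for the epithelial chemokines CCL27 and CCL28, ran opposite to CXCR4. CCR10 was at 0.61 ± 0.137 FPKM in HMC-1.2, 6.69 ± 0.216 FPKM in clone 1, 2.15 ± 0.247 FPKM in clone 2 and 5.01 ± 0.548 FPKM in HMC-1.1 (SD, n = 3). Relative to HMC-1.2 the log2 fold changes of CCR10 were 3.15, 1.63 and 2.84 in clone 1, clone 2 and HMC-1.1 (adjusted p = 2.4e-11, 5.6e-07 and 1.3e-10, edgeR). The scavenging receptor ACKR2 was at 1.74 FPKM in HMC-1.2 and was called lower in clone 2 (log2 fold change -0.77, adjusted p = 0.00055, edgeR) but not in clone 1 or HMC-1.1. The interleukin-8 receptor CXCR2, named after its values were seen, was at 1.85 FPKM in HMC-1.2, 1.82 FPKM in clone 1 and 1.48 FPKM in HMC-1.1 and at 0.0733 FPKM in clone 2. CXCR2 was lower in clone 2 than in clone 1 when the clones were tested directly (clone 1 against clone 2, log2 fold change 3.89, adjusted p = 2.2e-09, edgeR). CCRL2, a receptor without G protein signalling, was called lower in all 3 comparisons with HMC-1.2 and had a mean of 0.8 FPKM at most. CXCR1, at 0.127 FPKM at most, was called lower in clone 2 and HMC-1.1. It passed the filter on low counts only through HMC-1.2 and clone 1, so these calls are not independent of that filter.

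Of the other complement, formyl peptide and lipid chemoattractant receptors, 7 of 11 were tested, and C5AR2, the receptor that binds C5a without coupling to G proteins, was lower in each group than in HMC-1.2. C5AR2 was at 1.33 FPKM in HMC-1.2 and 0.15 to 0.23 FPKM elsewhere, with log2 fold changes of -2.83, -2.79 and -2.79 in clone 1, clone 2 and HMC-1.1 (adjusted p = 1.4e-08, 1.8e-08 and 1.9e-08, edgeR). Unlike C5AR1, C5AR2 was thus low in clone 2. The leukotriene B4 receptors LTB4R, at 2.69 to 3.76 FPKM, and LTB4R2, at 1.57 to 2.35 FPKM, were not called in a comparison with HMC-1.2. The chemerin receptor CMKLR1, the only further call on this list, was at 0.397 FPKM in HMC-1.2 and 0.223 FPKM in clone 2 (log2 fold change -1.12, adjusted p = 9e-05, edgeR). Of the other prostanoid and leukotriene receptors, 3 of 8 were tested. PTGER4, the remaining Gs-coupled prostaglandin E2 receptor, was at 1.13 FPKM in HMC-1.2 and 0.27 to 0.553 FPKM elsewhere, and its log2 fold changes were -1.93 (clone 1), -1.28 (clone 2) and -2.07 (HMC-1.1) (adjusted p = 2.5e-08, 2.5e-06 and 1.5e-08, edgeR). PTGER4 was therefore the most abundant prostaglandin E2 receptor mRNA named here. The thromboxane receptor TBXA2R was at 13 FPKM in HMC-1.2, 9.6 FPKM in clone 2, 5.07 FPKM in clone 1 and 4.68 FPKM in HMC-1.1, and it was called in clone 1 and HMC-1.1. TBXA2R thus kept clone 2 apart from clone 1, as C5AR1 did, and the clones differed directly by -0.98 on the log2 scale (clone 1 against clone 2, adjusted p = 2.5e-08, edgeR). CYSLTR2, the other cysteinyl leukotriene receptor, had a mean of 0.18 FPKM at most and was called higher in clone 2, the group through which alone it passed the filter.

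Of the other adenosine and nucleotide receptors, 5 of 12 were tested. P2RY8, a lymphoid receptor, was at 8.13 FPKM in HMC-1.2 and 0.433 to 0.71 FPKM elsewhere, with log2 fold changes of -4.20, -3.46 and -4.45 in clone 1, clone 2 and HMC-1.1 (adjusted p = 3.7e-16, 1.6e-15 and 2.2e-16, edgeR). P2RY8 is pseudoautosomal, its reads were divided between the X and Y copies, and these values are those of the X copy. The UDP-glucose receptor P2RY14 was called lower in all 3 comparisons, by -0.83, -1.13 and -0.68 on the log2 scale. P2RY1 and P2RY11, at 2.76 to 9.89 FPKM, were under the limit of 1.5-fold. The adenosine receptor ADORA3, which couples to Gi, was at 1.37 to 1.47 FPKM outside clone 2 and at 0.863 FPKM there, a log2 fold change of -0.90 against HMC-1.2 (adjusted p = 0.00092, edgeR). Of the other histamine receptors, 2 of 3 were tested. HRH1, which couples to Gq, was at 1.4 FPKM in HMC-1.2 and 0.93 FPKM in clone 2 and was called lower there (log2 fold change -0.61, adjusted p = 0.00029, edgeR), as HRH2 was, and HRH4, with a mean of 0.187 FPKM at most, was called lower in HMC-1.1 (log2 fold change -1.65, adjusted p = 0.021, edgeR).

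Among 9 tested of 22 other mast cell and leukocyte receptors, 3 were called lower in each comparison with HMC-1.2. These were the proton-sensing receptor GPR65, GPR35 and the thrombin receptor F2RL3. GPR65 was at 1.04 FPKM in HMC-1.2 and 0.07 to 0.137 FPKM elsewhere, and GPR35 was at 5.24 FPKM in HMC-1.2, 1.52 FPKM in clone 1, 1.47 FPKM in HMC-1.1 and 0.477 FPKM in clone 2. F2RL3 fell by 0.60, 0.80 and 0.72 on the log2 scale in clone 1, clone 2 and HMC-1.1. The adhesion receptor ADGRE5, at 37.7 to 44.5 FPKM, and the lysophosphatidic acid receptor LPAR5, at 12.8 to 15.4 FPKM, were not called in any of these.

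**Figure D5:**
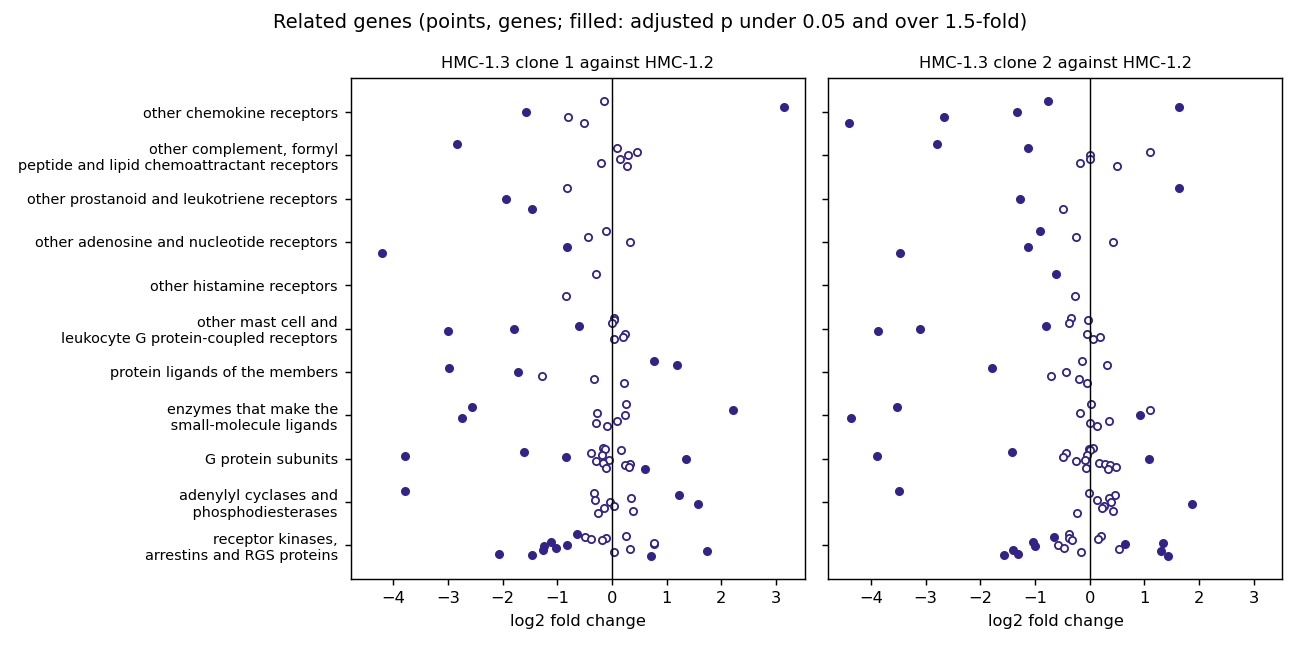
Log2 fold change against HMC-1.2 (horizontal axis) of each tested gene of 11 lists of related genes (rows), for HMC-1.3 clone 1 and clone 2 in separate panels. Filled points passed the adjusted p and the 1.5-fold change; among the 31 other receptors of the top 6 rows, 9 filled points lie below 0 in clone 1 and 14 in clone 2.

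Of 13 protein ligands of the receptors, 7 were tested, and 4 were called in clone 1 (2 higher, 2 lower), 1 in clone 2 (lower) and 3 in HMC-1.1 (1 higher, 2 lower), beside 20%, 16.5% and 17.6% of all genes. The CCR1 ligand CCL23 was at 2.88 FPKM in HMC-1.2 and 0.36 to 0.897 FPKM elsewhere, and its log2 fold changes were -2.97, -1.78 and -2.76 in clone 1, clone 2 and HMC-1.1 (adjusted p = 3.1e-06, 0.00022 and 6.5e-06, edgeR). CCL23 passed the filter on low counts only through HMC-1.2, as PTGER3 did. CCL23 and CCR1 were thus both highest in HMC-1.2, as was CCL3, another CCR1 ligand, at 1.08 FPKM against 0.263 to 0.783 FPKM. CCL3 was called lower in clone 1 and HMC-1.1 (log2 fold changes -1.73 and -2.08). The precursors of the anaphylatoxins were called higher in clone 1, C3 at 7.85 against 4.82 FPKM and C5 at 1.29 against 0.48 FPKM, and C5 was called higher in HMC-1.1 too. CXCL12, the ligand of CXCR4, was at 0 FPKM in all groups. MIF, a cytokine that can bind CXCR4, was abundant at 571 to 698 FPKM, and the ribosomal protein gene RPS19, whose product can bind C5AR1 outside cells, at 2220 to 2800 FPKM, and neither was called against HMC-1.2.

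Of 14 genes for enzymes that make or clear the small-molecule ligands, 9 were tested, and 1 was called higher and 2 lower in each comparison with HMC-1.2, beside the same shares of all genes. The higher one was the ectonucleotidase gene ENTPD1 in clone 1 and HMC-1.1, at 0.297 FPKM at most, and the prostaglandin dehydrogenase gene HPGD in clone 2. The lower ones were ALOX5AP and LTC4S, whose products act before and after 5-lipoxygenase in making the CYSLTR1 ligands. ALOX5, the 5-lipoxygenase itself, had 0 to 2 counts per library and was not tested. ALOX5AP, which presents arachidonic acid to that enzyme, was at 153 ± 7.77 FPKM in HMC-1.2, 27.2 ± 0.596 FPKM in clone 1, 13.7 ± 0.845 FPKM in clone 2 and 19.5 ± 0.531 FPKM in HMC-1.1 (SD, n = 3). Its log2 fold changes were -2.55, -3.53 and -3.04 (adjusted p = 2.3e-16, 8.8e-18 and 4.5e-17, edgeR). LTC4S, the leukotriene C4 synthase, was at 12.9 FPKM in HMC-1.2 and 0.763 to 2.17 FPKM elsewhere, with log2 fold changes of -2.74, -4.36 and -2.96 in clone 1, clone 2 and HMC-1.1. HDC, the enzyme that makes histamine, was at 852 to 1010 FPKM and PTGES3 at 262 to 314 FPKM, and neither passed the 1.5-fold limit.

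Of 20 G protein subunits, 17 were tested, and relative to HMC-1.2, clone 1 and HMC-1.1 had 2 called higher and 3 lower each, and clone 2 had 1 higher and 2 lower, in all 5, 5 and 3 of 17 for clone 1, HMC-1.1 and clone 2 beside 20%, 17.6% and 16.5% of all genes. GNAS, the gene of the Gs α subunit through which ADORA2A, ADORA2B, HRH2 and PTGER2 signal, was at 115 ± 6.45 FPKM in HMC-1.2, 306 ± 8.09 FPKM in clone 1, 247 ± 3.71 FPKM in clone 2 and 306 ± 5.47 FPKM in HMC-1.1 (SD, n = 3). The log2 fold changes of GNAS were 1.36, 1.09 and 1.35 (adjusted p = 1.3e-15, 2.7e-14 and 1.6e-15, edgeR), so that the mRNA of Gs α was lowest in the subline where ADORA2A was highest. GNA15, a Gq-class α subunit of blood cells to which many chemoattractant receptors can couple, was at 109 FPKM in HMC-1.2 and 35.1 to 41.6 FPKM elsewhere, with log2 fold changes of -1.62, -1.43 and -1.68 in clone 1, clone 2 and HMC-1.1. GNAQ was called lower in clone 1 and HMC-1.1, at 13.9 and 15.4 FPKM against 23.4 FPKM in HMC-1.2. The remaining calls were GNAL, a Gs-class α subunit at 0.503 FPKM at most, lower in all 3 but past the filter on low counts only through HMC-1.2, and the γ subunit gene GNG7, higher in clone 1 and HMC-1.1. GNB2, a β subunit, was at 191 to 222 FPKM and under the limit.

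Downstream, 11 of 19 adenylyl cyclases and phosphodiesterases were tested, of which 3 were called in clone 1 (2 higher, 1 lower), 2 in clone 2 (1 higher, 1 lower) and 3 in HMC-1.1 (2 higher, 1 lower), again beside 20%, 16.5% and 17.6% of all genes. PDE3A, which degrades cyclic AMP, was at 0.537 FPKM in HMC-1.2 and 1.46 to 1.98 FPKM elsewhere, with log2 fold changes of 1.57, 1.87 and 1.42 in clone 1, clone 2 and HMC-1.1. The most abundant cyclases, ADCY7 at 79.4 to 107 FPKM and ADCY3 at 21.9 to 25.7 FPKM, were not called, and the other calls were ADCY1 (lower) and ADCY4 (higher), with means of 0.147 and 0.313 FPKM at most. ADCY1 passed the filter only through HMC-1.2. Of 23 receptor kinases, arrestins and RGS proteins, which end or limit receptor signals, 19 were tested. In clone 1, 3 were called higher and 8 lower, in clone 2, 4 higher and 6 lower, and in HMC-1.1, 4 higher and 7 lower, beside the shares of all genes given above.

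The RGS proteins, which speed the return of G protein α subunits to their inactive form, moved in both directions. RGS3 was at 13.4 FPKM in HMC-1.2 and 3.2 to 5.41 FPKM elsewhere, with log2 fold changes of -2.06, -1.31 and -1.75 in clone 1, clone 2 and HMC-1.1. RGS5 was at 21.5 FPKM in HMC-1.2 and 7.56 to 8.28 FPKM elsewhere. RGS10 was at 120 FPKM in HMC-1.2 and 192 to 213 FPKM elsewhere, and RGS2 was at 0.357 FPKM and 0.9 to 1.24 FPKM, so these rose relative to HMC-1.2 where RGS3 and RGS5 fell, and each of the 4 was called in all 3 comparisons. ARRB2, the most abundant arrestin on the list, was at 88 to 106 FPKM and was not called.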

How the data were processed

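The submitters' processing notes and the study's methods name cutadapt 2.10, STAR 2.5.3, Picard and RSEM 1.3.0 with genome hg38. The authors deposited RSEM expected counts per gene and FPKM. Of the expected counts, 7.36% were not whole, since RSEM divides reads between genes, and they were rounded. Genes were tested with edgeR 4.0.16 (TMM, filterByExpr, quasi-likelihood test, all 12 libraries in 1 fit of 4 groups, Benjamini-Hochberg adjustment over 15944 genes). CPM use TMM-scaled library sizes. Similar profiles used a prior count of 3 and a mean of at least 1 CPM. Alternatives were DESeq2 1.42.0, limma 3.58.1 on log2(FPKM + pseudocount), other scalings, filters and fits, and leaving out each library. The edgeR step was tested on simulated data. Gene positions and types are from Gencode 44, where 99% of the gene IDs were found; C5AR2, GRK2 and GRK3 were matched by ID.

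The receptors and the lists of related genes were chosen with earlier results of these data known. All 10 receptors were described; from each list, the 3 most changed genes called the same way in both clones at 1 FPKM or more and the 2 most abundant were named, and for each expressed receptor the 2 genes of closest profile. Labels mark 3 libraries as resent (HMC-1.2 replicate 1, clone 1 replicate 3 and clone 2 replicate 1). No libraries matched within counting noise (chi-square per degree of freedom 2.88 to 8.01). No sequence is printed.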

Additional observations from a re-analysis of the deposited data

Results flagged for a closer look

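The change against HMC-1.2 differed between the HMC-1.3 clones for 4 of the 8 receptors tested, by the direct test of clone 1 against clone 2, where 50.2% of all genes tested passed the adjusted p. The difference, clone 1 minus clone 2 on the log2 scale, was -1.34 for C5AR1, 0.52 for HRH2, -0.28 for ADORA2A and -0.16 for C3AR1, with adjusted p = 3.4e-05, 0.00019, 0.00018 and 0.00052 by edgeR's quasi-likelihood test and Benjamini-Hochberg adjustment. The libraries of the clones did not overlap for any of these 4, and only C5AR1 passed the 1.5-fold limit. A clone descends from a single edited cell, so these are differences between 2 clones.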

How the results depend on the processing

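Over 22 alternatives (12 of which left out a library) and 48 receptor comparisons, 1022 values kept their direction and side of the threshold, 11 lost the call, 1 gained it and 7 changed sign without having been called. The number of receptors expressed stayed at 6, and receptors called ranged from 3 to 6 in each comparison with HMC-1.2. With no filter on low counts, CCR1, which is outside those 48 comparisons, was among the 6 called in clone 1 and HMC-1.1. With limma on log2(FPKM + 1), receptors called fell from 5 to 3 in each comparison with HMC-1.2 and from 1 to 0 in clone 2 against HMC-1.1 and in clone 1 against clone 2, and all genes called were 1933, 1482, 1541, 63, 572 and 987 in the order clone 1, clone 2 and HMC-1.1 against HMC-1.2, clone 1 and clone 2 against HMC-1.1, and clone 1 against clone 2. With log2(FPKM + 0.1) receptors called were 3 in clone 2 against HMC-1.2 and 0 in the same last comparisons. These fits also used another filter and test, PTGER3 was not tested in them, and the cause was not separated further. CXCR4 stayed called with log2(FPKM + 1), at -1.59, -1.48 and -1.55 in clone 1, clone 2 and HMC-1.1. In the same order, glmTreat called 1932, 1612, 1618, 9, 552 and 837 genes, where the fits reported gave 3193, 2630, 2803, 161, 1306 and 2013, since it tests against 1.5-fold itself. DESeq2 called 87 genes in clone 1 against HMC-1.1, and the cause was not tested. HRH2 in clone 2 against HMC-1.2 lost its call with limma (-0.42 and -0.55) and with glmTreat (adjusted p = 0.92).

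Leaving out libraries, all genes called in clone 1 against HMC-1.1 ranged from 107 (without clone 1 replicate 2) to 197, and receptors called in clone 1 against clone 2 ranged from 1 to 2, 2 being reached without clone 1 replicate 2, when HRH2 was at 0.60. Receptors called against HMC-1.2 ranged from 5 to 6 in clone 1 and HMC-1.1 and from 4 to 6 in clone 2. The 4 was reached without clone 2 replicate 2, and 6 was reached in each comparison without HMC-1.2 replicate 2, for example. The uncalled values that changed sign did so when a library was left out. CXCR4 ranged from -0.448 to 0.026 in clone 1 against HMC-1.1 and from -0.018 to 0.434 in clone 2 against HMC-1.1. In clone 1 against HMC-1.1, ADORA2B ranged from -0.035 to 0.061 (negative without HMC-1.1 replicate 2 or clone 1 replicate 1) and PTGER3 from -0.816 to 1.249 (negative without HMC-1.1 replicate 3 or clone 1 replicate 1). In clone 2 against HMC-1.1, CYSLTR1 ranged from -0.032 to 0.492. With group means in place of libraries, 3 of the 12 closest genes were shared.

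The labels number replicates 1 to 3 in each group without saying that a number is shared. Deviations of same-numbered libraries correlated at -0.04 to 0.10, with 0 of 18 pairs over 0.1 and 6 of 12 libraries correlating best with their own number. A replicate block left receptors called at 5, 5, 5, 0, 1 and 1 and gave 3185, 2637, 2799, 165, 1291 and 1994 genes called. Counts of 30 or fewer per library limit CXCR4 outside HMC-1.2, C5AR1 in clone 1 and HMC-1.1, CCR1, PTGER3 and CYSLTR1.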

Other observations

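Mast cell genes that are not G protein-coupled receptors also differed between the sublines. The tryptase gene TPSAB1 was at 592 ± 17 FPKM in HMC-1.2, 44.2 ± 1.19 FPKM in clone 1, 29.4 ± 1.58 FPKM in clone 2 and 37.2 ± 1.21 FPKM in HMC-1.1 (SD, n = 3), and it was called lower than in HMC-1.2 in all 3. TPSAB1 and TPSB2 are near-identical, so reads can be divided wrongly between them, and TPSB2, at 96.6 FPKM in HMC-1.2 and 35 to 40.7 FPKM elsewhere, was called lower too. The mast cell carboxypeptidase gene CPA3 was opposite, at 3.31 FPKM in HMC-1.2 and 7.52 to 10.9 FPKM elsewhere. FCER1A, the α chain of the IgE receptor, was at 1.09 FPKM in both HMC-1.2 and clone 2 and at 0.137 and 0.143 FPKM in clone 1 and HMC-1.1, a division of the groups that C5AR1 shared at smaller size.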
